A study of Homo sapiens with 13 samples.

Results

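NR3C1 encodes the glucocorticoid receptor, the protein that binds prednisolone and the target through which glucocorticoids act on lymphoid leukaemia. The locus was taken as the gene with 200 kb on both sides, chr5 from 142457 to 143015 kb on hg19. NR3C1 lies on the minus strand at 142657 to 142815 kb, so its 5′ end is at the higher coordinate. A peak belonged to the locus when it overlapped the window by at least 1 bp. These were 756 of the 3429979 peaks in 12 lists, with 13 to 139 peaks per list.

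The lists come from CUT&RUN, in which an antibody brings a nuclease to chromatin and the DNA it releases is sequenced, in Nalm6, an established line of human B-cell acute lymphoblastic leukaemia. The antibody was to LEF1 or to TCF7L2. The cells had been exposed for 24 h to 5 µM prednisolone, which is a synthetic glucocorticoid, or were controls, which the labels describe both as untreated and as given vehicle. Each of the 4 combinations had 3 replicates, described as independent experiments. All groups are 1 cell line grown in serum stripped with charcoal, the labels name no genetic change, and an IgG sample was not analysed here. The series' title names antagonism of the glucocorticoid and Wnt pathways and steroid resistance, and peaks of the Wnt factors at the gene of the receptor bear on that question.

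As background, LEF1 and TCF7L2 belong to the TCF/LEF family of DNA-binding proteins, which recruit β-catenin when Wnt signalling is active and TLE corepressors when it is not. LEF1 is a factor of developing lymphocytes and is expressed in many lymphoid leukaemias, whereas TCF7L2 is best known from the intestinal epithelium. The glucocorticoid receptor, once bound by hormone, enters the nucleus, binds DNA and activates or represses genes, NR3C1 among them. Transcription of NR3C1 starts at several alternative first exons, most of them in a CG-rich stretch of DNA well inside the outermost 5′ end. The messages differ in their leader and share the coding exons.

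RefSeq's promoter table for GRCh38.p14 holds 7 starts of NR3C1. Starts 1 and 2 are 0 and 0.703 kb into the gene, and the other 5 lie between 30.157 and 32.229 kb into it. The sequences below are the 250 bases before starts 1, 3, 4 and 5, from RefSeq, minus strand, written 5′ to 3′ with CG dinucleotides in capitals. They are shown because LEF1 peaks lay at the outermost 5′ end, while 5 of 6 TCF7L2 libraries had their best peak inside the gene about as far into it as starts 3 to 5. They occupy chr5:143435513-143435762, chr5:143405356-143405605, chr5:143404483-143404732 and chr5:143404237-143404486 on GRCh38.p14, in the same order.
NR3C1 start 1: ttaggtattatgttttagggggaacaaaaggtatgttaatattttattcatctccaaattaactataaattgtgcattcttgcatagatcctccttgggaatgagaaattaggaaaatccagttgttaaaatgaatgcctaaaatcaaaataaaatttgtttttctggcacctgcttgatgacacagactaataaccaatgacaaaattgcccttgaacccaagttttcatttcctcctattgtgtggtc
NR3C1 start 3: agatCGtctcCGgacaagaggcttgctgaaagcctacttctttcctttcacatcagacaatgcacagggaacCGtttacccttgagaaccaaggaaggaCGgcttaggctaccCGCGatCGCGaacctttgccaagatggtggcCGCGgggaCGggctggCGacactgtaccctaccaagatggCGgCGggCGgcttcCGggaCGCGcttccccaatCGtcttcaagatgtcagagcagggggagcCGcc
NR3C1 start 4: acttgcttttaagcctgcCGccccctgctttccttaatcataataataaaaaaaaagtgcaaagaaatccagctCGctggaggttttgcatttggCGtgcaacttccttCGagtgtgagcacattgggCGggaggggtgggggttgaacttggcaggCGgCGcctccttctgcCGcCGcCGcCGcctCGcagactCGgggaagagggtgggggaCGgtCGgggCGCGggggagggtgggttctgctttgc
NR3C1 start 5: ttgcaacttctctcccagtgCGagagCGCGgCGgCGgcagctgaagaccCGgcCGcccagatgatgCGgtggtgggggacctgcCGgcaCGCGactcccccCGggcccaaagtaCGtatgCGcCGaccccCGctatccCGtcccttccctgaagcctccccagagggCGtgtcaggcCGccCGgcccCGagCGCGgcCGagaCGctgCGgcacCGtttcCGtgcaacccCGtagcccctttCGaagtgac
The DNA before start 1 was AT-rich, with 32.8% G and C and 0 CG dinucleotides. Before starts 3, 4 and 5 the G and C content was 59.6%, 59.2% and 70.8%, with 20, 17 and 30 CG dinucleotides. The highest value stood before start 6, with 82% G and C and 42 CG dinucleotides. The medians over all 35116 promoters of the table were 58% and 11. Neither the TCF/LEF core CTTTGA nor the glucocorticoid receptor palindrome ACANNNTGT was found on either strand in any of the 7 stretches of 250 bases. The core was present in 11.2% of all promoters of that length and the palindrome in 4.61%. No hg19 sequence was used here, so the peaks themselves were not searched, and distances within the gene on the 2 builds are set side by side without an alignment between them.

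The lists held 128863 to 395786 peaks, and read totals were not used here. Each peak carries the authors' own fold ratio over the modelled background and −log10 q, which describe and rank peaks within a list. LEF1 lists reached a −log10 q of 5.49 to 6.62 at rank 20000, whereas TCF7L2 lists stood at 0.390 to 0.996 there. For comparisons between lists each was therefore restricted to its 20000 top peaks by p-value, or the locus count was given per 100000 peaks of the full list. The shortest peak of a list measured 158 to 167 bp in 6 lists and 187 to 201 bp in the other 6, and every combination of antibody and treatment had lists of both kinds. A difference between treatments within a set of lists of the same kind always had a single list for 1 of the treatments.

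At the locus as a whole, LEF1 peaks made up a larger share of their lists than TCF7L2 peaks did of theirs. The LEF1 control lists held 26.8, 35.8 and 26.8 locus peaks per 100000 in replicates 1 to 3, and the LEF1 prednisolone lists held 32.9, 35.7 and 33.4. TCF7L2 control lists held 15.9, 14.9 and 17.8 per 100000, and TCF7L2 prednisolone lists held 10.7, 13.9 and 9.02. Every TCF7L2 list lay below every LEF1 list, and every TCF7L2 prednisolone list lay below every TCF7L2 control list. The LEF1 treatments overlapped, since control replicate 2 was the highest of the 6.

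**Figure D1:**
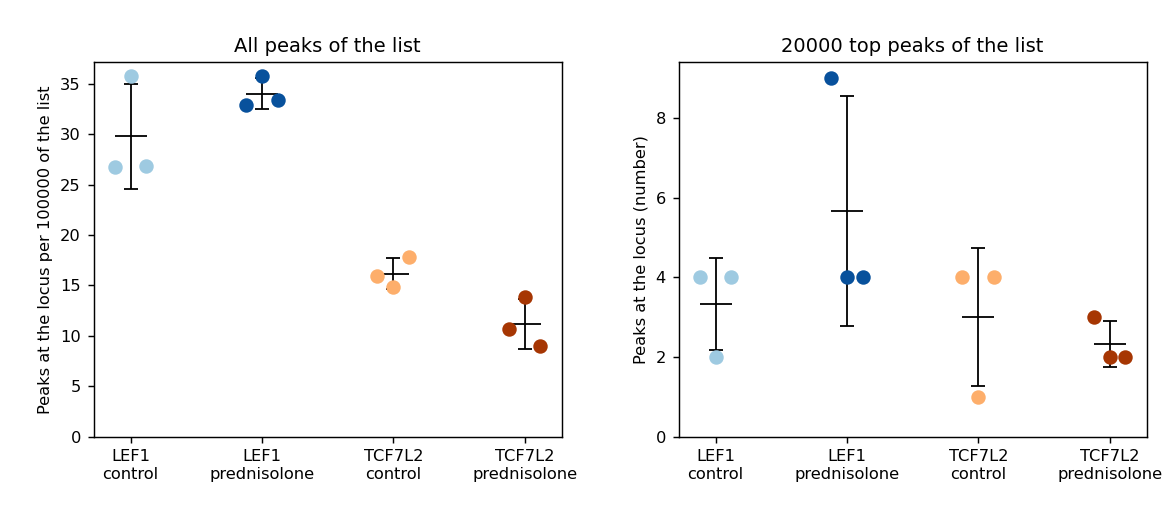
Peaks at the NR3C1 locus by library: on the left per 100000 peaks of the full list, on the right the number among the 20000 top peaks of the list. Points are libraries, lines are the mean ± SD of 3. On the left the TCF7L2 libraries (9.02 to 17.8) sit below the LEF1 libraries (26.8 to 35.8), and on the right the groups overlap.

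Across treatments the mean was 31.9 ± 4.12 (SD, n = 6) per 100000 for LEF1 and 13.7 ± 3.28 (SD, n = 6) for TCF7L2, a difference of -18.2. The exact permutation test, two-sided with antibody labels exchanged within each treatment, gave p = 0.005, the smallest it can give, and 0.045 after Benjamini-Hochberg adjustment over 9 comparisons. The same order, every TCF7L2 list below every LEF1 list, occurred in 15.6% of the 5170 windows of 558 kb across the genome, and the opposite order in 27.5%. By shortest peak length, LEF1 lists of the shorter kind against TCF7L2 lists of the longer kind differed by -19.0. The reverse pairing gave -17.4, so these crossed pairings do not hold the kind of list equal.

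For TCF7L2 the share was 16.2 ± 1.49 (SD, n = 3) per 100000 in control cells and 11.2 ± 2.47 (SD, n = 3) after prednisolone, a difference of -4.97. The exact permutation p was 0.1, the smallest that 3 against 3 allows (adjusted 0.3), so this difference cannot pass 0.05. Windows in which every TCF7L2 prednisolone list lay below every control list made up 4.76% of the genome's. Within the sets of shortest peak length the difference was -5.61 (2 control lists against 1) and -4.44 (1 control list against 2). For LEF1 the share was 29.8 ± 5.18 (SD, n = 3) in control cells and 34.0 ± 1.53 (SD, n = 3) after prednisolone, a difference of 4.22 within the spread of the replicates (exact permutation p = 0.4, adjusted 0.6). The treatment effect on LEF1 exceeded that on TCF7L2 by 9.19 per 100000, with an exact permutation p of 0.04 that became 0.12 when adjusted over the 3 measures.

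Set against windows of the same length, the locus held more LEF1 peaks than 68.9%, 83.2% and 69.0% of windows in the control lists and than 79.6%, 89.7% and 79.2% in the prednisolone lists. Its TCF7L2 peaks outnumbered those of 34.6%, 35.9% and 46.4% of windows in control lists. After prednisolone that percentage was 13.6%, 11.4% and 13.8%, so the locus was poor in TCF7L2 peaks for its length in those 3 lists.

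Among the 20000 top peaks, the median window of the genome held 2 LEF1 peaks in each LEF1 list and 2 or 3 TCF7L2 peaks in the TCF7L2 lists. At the locus LEF1 control lists had 4, 2 and 4, LEF1 prednisolone lists 9, 4 and 4, TCF7L2 control lists 4, 1 and 4, and TCF7L2 prednisolone lists 3, 2 and 2. For LEF1 the locus held more than 41.0% of windows in control replicate 2, than 85.9% in prednisolone replicate 1 and than about 60% in the other 4 lists. The groups overlapped in every comparison. LEF1 went from 3.33 ± 1.15 (SD, n = 3) to 5.67 ± 2.89 (SD, n = 3) with exact permutation p = 0.6 (adjusted 0.771), and TCF7L2 from 3 ± 1.73 to 2.33 ± 0.577 (SD, n = 3) with exact permutation p = 0.8 (adjusted 0.8). The TCF7L2 difference of -0.667 became -1.33 (exact permutation p = 0.3) when peaks equal at rank 20000 were drawn at random. Within the sets of shortest peak length the LEF1 difference was 0 and 6, the second resting on prednisolone replicate 1 alone, and that of TCF7L2 was 0.5 and -2. Between the antibodies, 4.5 ± 2.35 for LEF1 and 2.67 ± 1.21 for TCF7L2 (SD, n = 6) gave an exact permutation p of 0.17 (adjusted 0.36). In the crossed pairings of list kind the difference was -1.33 and -2.33.

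LEF1 top peaks covered 0.685 ± 0.359% (SD, n = 3) of the window in control cells and 1.50 ± 0.842% (SD, n = 3) after prednisolone (exact permutation p = 0.2, adjusted 0.36). The difference was 0.405 and 1.72 percentage points within the sets. TCF7L2 top peaks covered 0.395 ± 0.183% and 0.302 ± 0.106% (SD, n = 3; exact permutation p = 0.7, adjusted 0.787), with differences of 0.115 and -0.324 points within the sets. The difference between the antibodies, 1.09 ± 0.732% for LEF1 against 0.348 ± 0.143% for TCF7L2 (SD, n = 6), had an exact permutation p of 0.015 that did not pass after adjustment (0.0675). In the crossed pairings of list kind it was -0.553 and -0.938 points.

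The peaks also differed in strength as the authors scored them. LEF1 control lists had 25, 17 and 22 locus peaks with −log10 q of at least 2, and LEF1 prednisolone lists had 22, 16 and 18. TCF7L2 lists had 0, 1 and 3 in control cells and 1, 0 and 0 after prednisolone. At a −log10 q of at least 5 the LEF1 counts were 7, 3 and 6 in control cells and 10, 5 and 5 after prednisolone, and TCF7L2 had 0 in each list. A q-value of 1 was attached to 34.7% to 85.5% of the TCF7L2 peaks at the locus, to 22.3% of those of LEF1 prednisolone replicate 2, and to at most 2.33% in the other LEF1 lists.

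**Figure D2:**
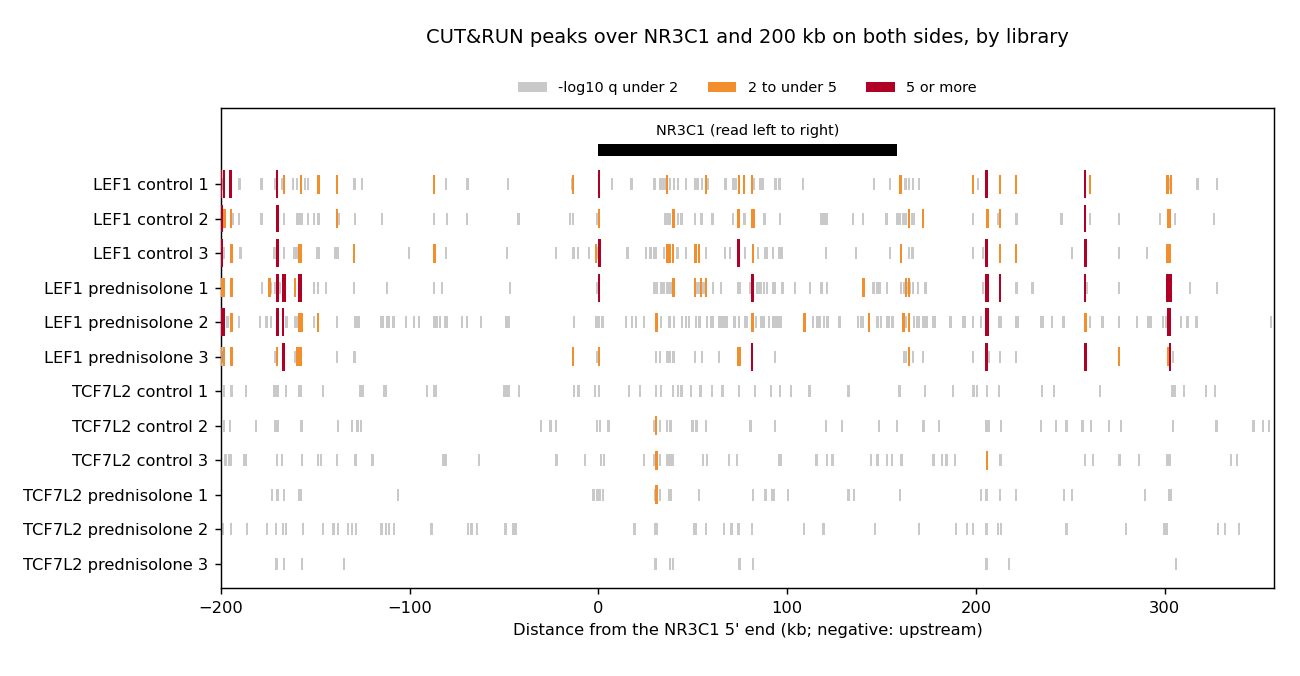
Every peak of the 12 lists at the locus, by distance in kb from the NR3C1 5′ end, read in the direction of transcription. Rows are libraries, ticks are peaks coloured by −log10 q, and the black bar is the gene. Peaks of 5 or more occur in LEF1 rows and in 0 of the TCF7L2 rows, and the TCF7L2 peaks of 2 or more gather 30 kb inside the gene apart from 1 in control replicate 3.

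Merging overlapping peaks of all 12 lists gave 303 regions, of which 198 had a peak in 1 library and 2 had a peak in all 12. One region covered the 5′ end (within 2 kb of it), 112 lay inside the gene bounds, 97 upstream and 93 downstream. Without an hg19 annotation, exons and introns inside the gene were not told apart. LEF1 had a peak in all 3 control libraries at 31 regions and in all 3 prednisolone libraries at 27, of which 20 were the same regions. For TCF7L2 the numbers were 8 and 5. The 31 LEF1 regions of control cells comprised the 5′ end, 10 regions inside the gene, 12 upstream and 8 downstream. After prednisolone the 27 comprised the 5′ end, 9 inside, 7 upstream and 10 downstream. In control cells 6 regions were shared by all 3 libraries of both antibodies, which is 19.4% of the LEF1 regions and 75% of the TCF7L2 regions. After prednisolone 5 were shared, 18.5% and 100%. When the 6 full lists of one treatment were merged by themselves, 10 of 211 regions of control cells had a peak of every LEF1 library and of no TCF7L2 library (genome 2.55%), and 0 had the opposite pattern (genome 0.484%). After prednisolone the counts were 10 of 208 (genome 2.87%) and 0 (genome 0.268%).

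**Figure D3:**
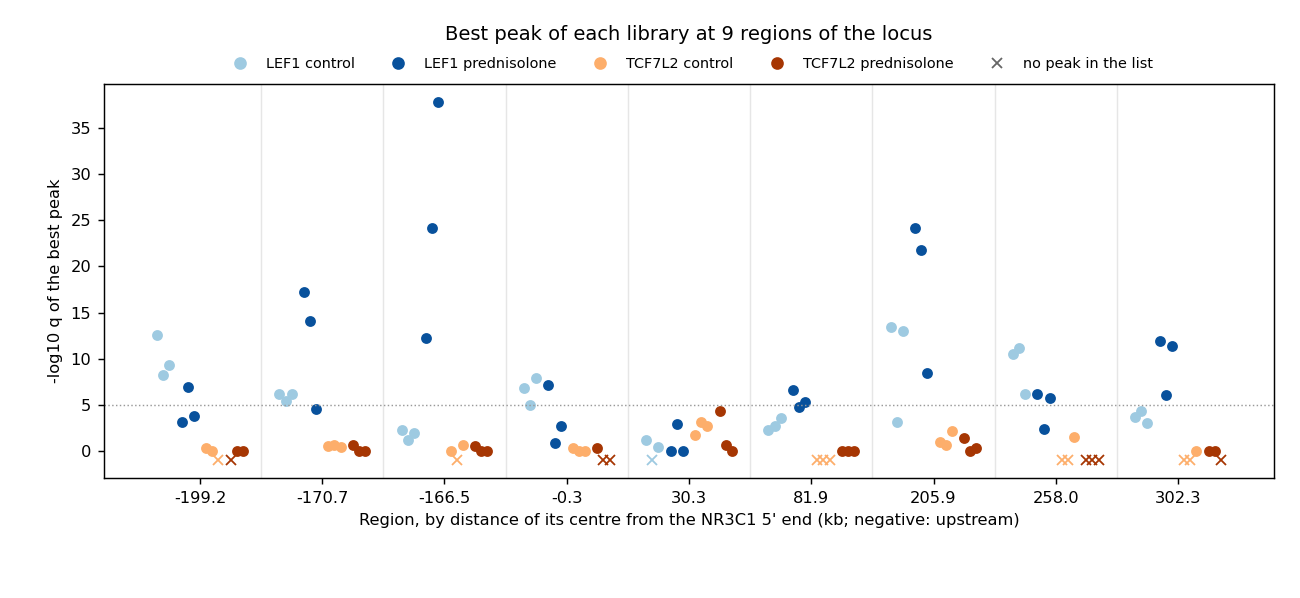
The best peak of each library at 9 regions, as the authors' −log10 q, with regions ordered by the distance of their centre from the NR3C1 5′ end in kb. Points are libraries, crosses mark libraries without a peak, and the dotted line is at 5. At the region 166.5 kb upstream the 3 LEF1 prednisolone points lie at 12.2 to 37.8 and the 3 LEF1 control points at 1.18 to 2.30.

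By place, the gene held more LEF1 peaks per length than its flanks in each control library. LEF1 control libraries had 33, 27 and 27 peaks inside the gene bounds, a density of 18.6 ± 2.22 peaks per 100 kb (SD, n = 3), with 12.8 ± 0.292 upstream and 8.83 ± 1.53 downstream. After prednisolone the LEF1 densities were 22.2 ± 14.1 inside, 12.5 ± 6.88 upstream and 12.8 ± 6.81 downstream (SD, n = 3), and their spread followed the length of the lists, from 12 peaks inside the gene in replicate 3 to 56 in replicate 2. The stronger LEF1 peaks did not show that order in every control library, and are given as counts over 156 kb inside, 198 kb upstream and 200 kb downstream. Those with −log10 q of at least 2 numbered 5, 4 and 6 inside the gene in control replicates 1 to 3, 10, 5 and 7 upstream and 9, 7 and 7 downstream. In prednisolone replicates 1 to 3 they numbered 6, 4 and 2 inside, 8, 7 and 9 upstream and 7, 5 and 6 downstream. TCF7L2 densities were 12.8 ± 2.94 inside, 9.76 ± 3.09 upstream and 8 ± 0.5 downstream in control cells, and 7.05 ± 3.33, 6.73 ± 6.03 and 4.5 ± 2.78 after prednisolone (SD, n = 3).

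At the 5′ end, chr5:142813535-142817012 (hg19), LEF1 peaks were present in all 6 libraries. Their fold was 5.53, 4.71 and 5.91 in control replicates 1 to 3, with summits within 24 bp of each other. In prednisolone replicates 1 to 3 it was 5.64, 2.44 and 3.79, with summits within 192 bp. The −log10 q was 6.87, 4.98 and 7.87 in control cells and 7.17, 0.849 and 2.74 after prednisolone, so prednisolone replicate 1 stood with the controls and the other 2 below them. TCF7L2 peaks in the region had a −log10 q of 0.378, 0.0546 and 0.0760 in control cells, with summits 2308 bp apart. After prednisolone the region held TCF7L2 peaks in replicate 1, the best at 0.362, and none in replicates 2 and 3. No TCF7L2 library had a top peak at the 5′ end, against 2 of 3 LEF1 control libraries and 1 of 3 LEF1 prednisolone libraries.

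Inside the gene, 5 of 6 TCF7L2 libraries had their best-ranked peak in 1 region, chr5:142783459-142785855, whose centre is 30.3 kb from the 5′ end on hg19. It was singled out after its values were seen. The exception was prednisolone replicate 3, whose best peak inside the gene had its summit 75.0 kb from the 5′ end, with rank 16528 and −log10 q 0.390. In control replicates 1 to 3 the best TCF7L2 peak there had a fold of 3.21, 3.83 and 3.80, a −log10 q of 1.75, 3.15 and 2.76 and rank 9210, 4494 and 6757. In prednisolone replicates 1 to 3 the fold was 4.11, 2.79 and 1.93, the −log10 q 4.36, 0.711 and 0, and the rank 2652, 9250 and 90803. The treatments thus overlapped, with prednisolone replicate 1 the strongest of the 6 and replicate 3 the weakest. The summits of these TCF7L2 peaks spread over 537 bp in control cells and over 1080 bp after prednisolone. LEF1 peaks in the region ranked lower within their lists than those of each TCF7L2 library but prednisolone replicate 3, whose rank lay within the LEF1 range. LEF1 control replicate 2 had none, and the −log10 q of the other 5 LEF1 libraries ran from 0.0456 to 2.92, with ranks from 46178 to 230235.

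Restricted to top peaks of the control libraries, a region at chr5:142783692-142784919 held a peak of all 3 TCF7L2 libraries and of no LEF1 library. It was 1 of 8 regions of the locus, while 3.12% of regions across the genome showed that pattern. After prednisolone the pattern was met at 0 of 13 regions (genome 1.58%). On GRCh38.p14 the NR3C1 starts 3, 4 and 5 lie 30.157, 31.03 and 31.276 kb into the gene, in the CG-rich stretch printed above.

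**Figure D4:**
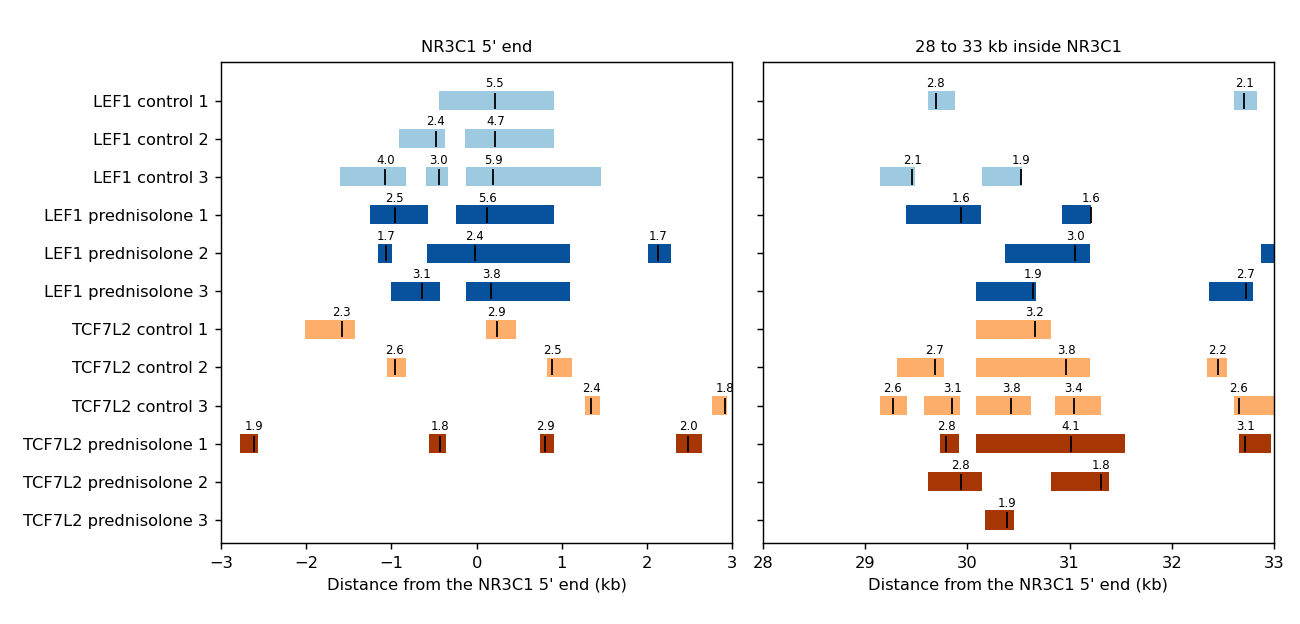
Peaks at the NR3C1 5′ end (left) and at 28 to 33 kb inside the gene (right), by distance in kb from the 5′ end on hg19. Rows are libraries, bars are peaks, black ticks are summits and numbers are the authors' fold. On the left the LEF1 control summits with folds of 5.53, 4.71 and 5.91 line up, and on the right TCF7L2 peaks occur in all 6 rows.

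A second region inside the gene, chr5:142732306-142733948, centred 81.9 kb from the 5′ end, fell just outside the rule that a group have −log10 q of at least 5 in all 3 libraries. LEF1 peaks there had a −log10 q of 2.30, 2.77 and 3.58 in control replicates 1 to 3 and of 6.62, 4.82 and 5.37 in prednisolone replicates 1 to 3. The fold was 3.46, 3.68 and 4.50 against 6.12, 5.28 and 5.92, without overlap between treatments. The region was taken up because 2 of 3 prednisolone libraries reached a −log10 q of 5, so the fold order of the same peaks adds nothing. Across the genome 7.54% of regions with a LEF1 peak in all 6 libraries had that order. TCF7L2 had no peak there in control cells and peaks of −log10 q 0 to 0.0361 in the 3 prednisolone libraries. These 3 peaks did not overlap each other, with summits spread over 647 bp, and only the LEF1 peaks join them into 1 region. With the TCF7L2 lists merged by themselves, the site was therefore not a region gained by TCF7L2. In the full lists, 1 of 211 LEF1 regions had a peak in every control library and in no prednisolone library (genome 0.710%), and 0 of 211 had the opposite pattern (genome 0.282%). It lay inside the gene at chr5:142772644-142773275, 42.0 kb from the 5′ end, and its peaks were weak, with −log10 q of 0.747, 0.447 and 0.179.

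Upstream of the gene lay the 1 region that LEF1 gained by the rule of a top peak in all 3 prednisolone libraries and in no control library. It spans 2049 bp at chr5:142980724-142982772, 166.7 kb from the 5′ end. It was 1 of the 12 LEF1 regions of the locus, and 2.82% of 36912 regions across the genome were gained. None of the 12 was lost (genome 1.92%). Without prednisolone replicate 2 the counts were 2 gained and 1 lost, and without replicate 3 they were 2 and 0. With 100000 top peaks the list takes in the control peaks of the site, and 0 of 68 LEF1 regions were gained and 1 was lost, at chr5:142901646-142902376, 87.0 kb upstream of the 5′ end (genome 1.09% and 0.789%). A single region with this pattern has an exact p of 0.1 and was not tested.

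In control replicates 1 to 3 the best LEF1 peak there had a fold of 3.80, 3.18 and 3.50, a −log10 q of 2.30, 1.18 and 1.96 and rank 62684, 88213 and 72967. After prednisolone the fold was 8.67, 13.9 and 18.9, the −log10 q 12.2, 24.1 and 37.8 and the rank 9552, 2716 and 1096. The folds did not overlap, at 3.49 ± 0.310 (SD, n = 3) and 13.8 ± 5.11 (SD, n = 3). Since the rule picked the region by the ranks of these same peaks, that separation adds nothing to the call. Control cells had a weak LEF1 peak at the site in each library. In prednisolone replicates 2 and 3 this peak had the highest −log10 q of the whole locus, whereas in replicate 1 the highest, 24.2, lay downstream of the gene. Ordered by the worst rank among the prednisolone libraries, it was number 187 of the 1040 gained regions of the genome.

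TCF7L2 peaks coincided with it after prednisolone, though they were weak. Their fold was 3.26, 2.82 and 2.67 in prednisolone replicates 1 to 3, with −log10 q 0.612, 0.0361 and 0. The summits of the 3 LEF1 and the 3 TCF7L2 prednisolone peaks all fell within 150 bp. In control cells TCF7L2 replicate 2 had no peak, and replicates 1 and 3 had peaks only at the edges, ending at 142980769 and starting at 142982677. In the full TCF7L2 lists the core of the site, chr5:142981438-142982297, was therefore the 1 of 202 locus regions with a peak in all 3 prednisolone libraries and in no control library (genome 0.126%). The opposite pattern was met at 0 of 202 (genome 0.439%). Among top peaks 0 of 8 TCF7L2 regions were gained (genome 0.360%) and 0 of 8 lost (genome 1.24%). Across the genome, 44.3% of the 1040 gained LEF1 regions and 24.3% of all 36912 LEF1 regions overlapped a TCF7L2 peak in all 3 prednisolone lists. With no TCF7L2 peak in any control list besides, the shares were 2.5% and 0.387%. These shares count any overlap with the whole LEF1 region. The gained region of the locus is thus among the 44.3% and not among the 2.5%, since the edge peaks of TCF7L2 control replicates 1 and 3 overlap it. Gained regions had a LEF1 top peak in 3 libraries, whereas the 36912 include regions with a top peak in 1, so the sets are not alike in LEF1 strength.

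**Figure D5:**
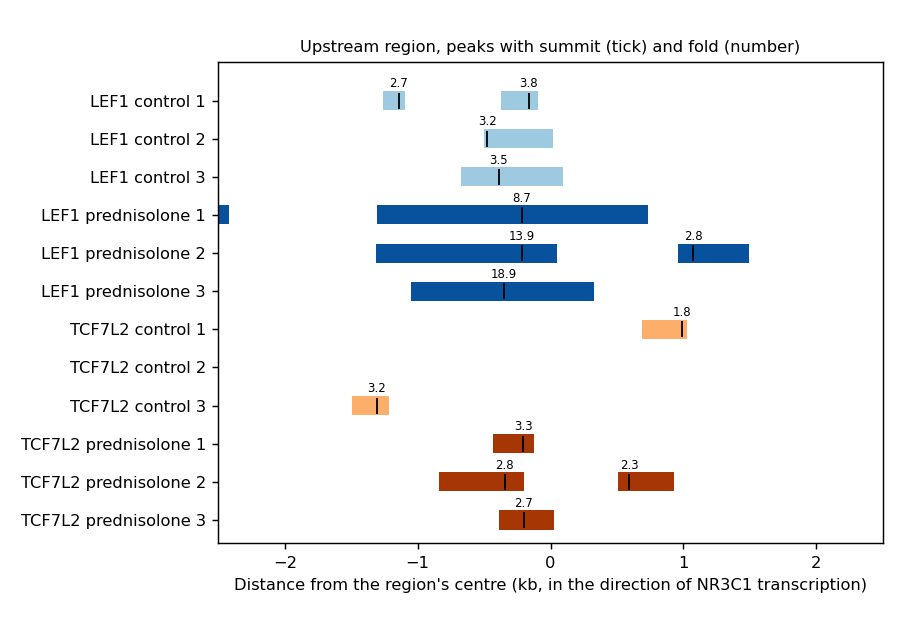
Peaks at the region 166.5 kb upstream of NR3C1, by distance in kb from its centre in the direction of transcription. Rows are libraries, bars are peaks, black ticks are summits and numbers are the authors' fold. LEF1 prednisolone peaks have folds of 8.67 to 18.9 and LEF1 control peaks near them 3.18 to 3.80, and TCF7L2 peaks lie under the LEF1 summits in the prednisolone rows.

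The next region, chr5:142984322-142987104, centred 170.7 kb upstream, was 1 of the 2 with a peak in all 12 libraries. LEF1 had a −log10 q of 6.15, 5.38 and 6.14 in control replicates 1 to 3 and of 17.2, 14.1 and 4.54 in prednisolone replicates 1 to 3, so that prednisolone replicates 1 and 2 were above the controls and replicate 3 below them. TCF7L2 peaks there had −log10 q of 0.503 to 0.677 in control cells and of 0 to 0.708 after prednisolone.

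The outermost upstream region, chr5:143012734-143015713, crosses the edge of the window. LEF1 folds of the best peak were 8.47, 6.58 and 6.85 in control replicates 1 to 3 and 3.88, 6.01 and 5.24 in prednisolone replicates 1 to 3, without overlap. The −log10 q ran from 8.28 to 12.6 and from 3.14 to 6.97. In prednisolone replicate 3 that peak had its summit at 143013363, against 143014801 to 143014979 in the other LEF1 libraries. Near 143013363 control replicates 1 and 2 had peaks of fold 5.98 and 4.33, so the fold order is not that of a single site. The region was named because all 3 control libraries reached a −log10 q of 5, as did 1 prednisolone library. The fold order comes from those same peaks and adds nothing to the naming. Across the genome 10.7% of regions with a LEF1 peak in all 6 libraries had that order. The region held a top peak in all 3 LEF1 control libraries and in 1 LEF1 prednisolone library (replicate 2), and so was not called lost. TCF7L2 peaks there reached a −log10 q of 0.378 at most. In control cells chr5:143014032-143015713 was the 1 of 8 top regions held by all LEF1 and no TCF7L2 libraries (genome 6.81%). After prednisolone that pattern was met at 1 of 13 (genome 8.20%), the gained region. That 1 became 2 without LEF1 prednisolone replicate 2. Without TCF7L2 prednisolone replicate 3, 1 region with all TCF7L2 and no LEF1 libraries was added to it. On GRCh38.p14 the RefSeq genes upstream include the long noncoding RNAs LOC105378208, 95.8 to 124.6 kb from the NR3C1 5′ end, and LOC105378209, 125.8 to 162.9 kb from it.

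Downstream of the 3′ end, 3 regions carried strong LEF1 peaks. The other region with a peak in all 12 libraries, chr5:142607855-142610356, lies 47.9 kb beyond the 3′ end. On GRCh38.p14 the protein-coding gene ARHGAP26 runs from 48.9 to 507.6 kb beyond the 3′ end of NR3C1, so the distances of the other 2 regions fall within its span there. LEF1 folds in this region were 9.31, 3.72 and 8.99 in control replicates 1 to 3 and 13.1, 12.7 and 7.10 in prednisolone replicates 1 to 3, and the treatments overlapped. TCF7L2 folds were 3.52, 3.26 and 4.32 in control cells and 3.91, 2.82 and 3.21 after prednisolone, also overlapping. Of the TCF7L2 libraries, 2 of 3 in each treatment had a top peak there.

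At chr5:142556360-142557544, 100 kb beyond the 3′ end, LEF1 summits of the 3 control libraries fell within 7 bp. The fold was 6.92, 7.02 and 5.21 in control replicates 1 to 3 and 5.39, 3.26 and 5.05 in prednisolone replicates 1 to 3, which overlapped. Only 1 TCF7L2 library, control replicate 3, had a peak there, with a fold of 3.83 and −log10 q 1.54. At chr5:142511042-142514415, 144.3 kb beyond the 3′ end, the LEF1 fold was 4.15, 4.77 and 3.82 in control cells and 7.41, 5.58 and 7.96 after prednisolone, without overlap. The corresponding −log10 q was 3.05 to 4.35 and 6.03 to 11.9. The region was named because all 3 prednisolone libraries, and no control library, reached a −log10 q of 5. The fold order comes from those same peaks and adds nothing to the naming. Across the genome 7.54% of regions with a LEF1 peak in all 6 libraries had that order. TCF7L2 peaks were listed there in 3 of 6 libraries, each with a q-value of 1.

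Over the whole locus, 19 regions had a LEF1 peak in all 6 libraries when the LEF1 lists were merged by themselves. At 3 of them the fold of the best peak was higher in every prednisolone library than in every control library, and 7.54% of 65207 such regions of the genome had that order. These were the region 166.7 kb upstream, already picked as gained by its ranks, and those 81.9 kb inside the gene and in the stretch centred 144.3 kb beyond the 3′ end. At 2 of the 19 every prednisolone library was below every control library (genome 10.7%), the region at the upstream edge of the window and chr5:142776756-142779228, centred 37.0 kb inside the gene. The folds are each list's own, so these counts describe the deposited values and were not tested.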

How the data were processed

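Peak lists of 12 libraries were analysed, 3 per combination of antibody and treatment. Per the submitters' processing notes the authors used MACS2 and hg19. The aligner, versions, the control used for calling and duplicate handling are not given in the sources used here. Each library has its own list. The authors deposited for each peak the fold ratio and the −log10 of both the p-value and the q-value. The lowest deposited −log10 p of any list was 1.30, so the lists are not restricted on q, and a −log10 q of 0 is a q-value of 1. Read depth is unknown, and the 3 replicates per group limit the precision.

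Peaks overlapping the window by at least 1 bp were counted in full lists, in the 20000 top peaks by p-value (ties by fold, then position) and above −log10 q of 2 or 5. Equal peaks at rank 20000 were also drawn at random. Regions are peaks merged where they overlap, and the 5′ end region is the one within 2 kb of that end. Genome backgrounds are windows of 558 kb and merged regions. Exact permutation tests of differences of group means were two-sided, with Benjamini-Hochberg adjustment over 9 comparisons. Regions were named when all 3 libraries of a group had −log10 q of at least 5, when gained or lost among top peaks, or at the 5′ end. The region 30.3 kb inside the gene was added after its values were seen, and so were the genome shares for fold order and for TCF7L2 peaks at LEF1 regions. The window, lists and rules were chosen with earlier results of these data known. The merging and tests were tested on simulated data with Python 3.11.15, numpy 2.4.6, pandas 2.3.3 and scipy 1.17.1. Neighbouring genes, starts and sequences are RefSeq's on GRCh38.p14, with no coordinates converted. Without an hg19 genome or annotation, motifs in peaks, exons and the planned list of receptor pathway genes were not analysed here.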

Additional observations from a re-analysis of the deposited data

How the results depend on the processing

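Among 236 recomputed values, 150 of those for the main results kept their direction and side of the threshold or, for counts of regions, stayed within 1.5 times the total, among them every alternative of the TCF7L2 against LEF1 share of the full list. Another 11 turned direction, 19 moved, 3 newly passed and 5 no longer passed, and the cause was not tested. For prednisolone against control p cannot go below 0.1, so the side of the threshold was fixed in advance in those comparisons. The remaining values count libraries with a peak at single named regions. Of these 34 moved, 1 turned direction and 13 stayed the same. LEF1 prednisolone minus control in top peaks became 0 with 50 kb flanks, -0.333 in the gene alone and -2.67 at −log10 q of at least 2. The LEF1 share became -0.745 at −log10 q of at least 2, and LEF1 coverage -0.0664, -0.393 and -0.00257 under the same 3 settings. For TCF7L2, 5000 top peaks gave 0.333 peaks and 0.0704 points of coverage, and −log10 q of at least 5 gave 0 for peaks, share and coverage. TCF7L2 minus LEF1 in top peaks became 0.5 with 50 kb flanks and 0.5 in the gene alone, but -18.2 with 100000 top peaks, -19.2 at −log10 q of at least 2 and -6 at 5, each with exact permutation p = 0.005. In coverage it became -0.335 with 50 kb flanks, 0.0495 in the gene alone and -0.0974 with 5000 top peaks (exact permutation p = 0.37, 0.895 and 0.4). Gained or lost LEF1 regions were 0 with 5000 top peaks. Their total of 1 stayed with 100000 top peaks and in full lists, but as 0 gained and 1 lost instead of 1 and 0. Random choice among equal peaks moved TCF7L2 from -0.667 to -1.33 top peaks and from -0.0926 to -0.179 points of coverage. TCF7L2 had 1 gained region with 100000 top peaks and 1 in full lists. Regions of 1 antibody alone, 2 in control cells and 1 after prednisolone, became 0 and 0 with 5000 top peaks, 9 and 4 with 100000, 10 and 10 in full lists and 10 and 10 at −log10 q of at least 2. The TCF7L2 difference at the region starting at 142984322 went from 1 library to -2 with 100000 top peaks.

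Without each library in turn, LEF1 prednisolone minus control ranged from 0.667 to 3.17 top peaks, 2.71 to 7.21 per 100000 and 0.352 to 1.17 points of coverage. For TCF7L2 the ranges were -1.67 to -0.167, -6.32 to -3.88 and -0.189 to -0.00735. TCF7L2 minus LEF1 ranged from -2.25 to -1, -18.9 to -16.7 and -0.922 to -0.512, and the unadjusted exact permutation p for coverage was 0.055 without TCF7L2 prednisolone replicate 1 (-0.776), 2 (-0.731) or 3 (-0.729). Gained or lost regions ranged from 1 to 3 for LEF1 and from 0 to 0 for TCF7L2, and those of 1 antibody from 2 to 3 in control cells and 1 to 2 after prednisolone.

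Whether the replicate numbers pair the libraries is not known. The correlation of same-numbered libraries ran from -0.0556 to -0.000664, which cannot tell whether they came from the same experiment. With the replicate block the differences were as before, with exact permutation p of 0.5 (LEF1), 0.25 (TCF7L2) and 0.0312 (antibodies, -18.2) for the share. For top peaks p was 0.5, 0.75 and 0.125, and for coverage 0.5, 0.5 and 0.0312. For a treatment effect with 3 pairs the smallest p is 0.25.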
